A study of Mus musculus with 14 samples.

Results

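The gene-poor stretch between Myh15 and Ift57 covers 480 kb of mouse chromosome 16, from 49210001 to 49690000 in build mm10. It was chosen by position: all pairs of its 48 bins of 10 kb that lay at least 60 kb apart were taken, which gave 903 of the 140185 such pairs in the mapped interval. RefSeq places 1 protein-coding gene in it, the predicted gene Gm4802. The long non-coding RNA genes 1700026J12Rik and Gm31494 and 4 pseudogenes make up the rest of its annotation. Myh15, a myosin heavy chain gene, ends to its left, and Ift57, which encodes a protein of the transport machinery of cilia, starts to its right. The bin starting at 49500001, called the dividing bin here, splits the stretch into a left side of 29 bins and a right side of 18 bins.

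The series examined DNA contacts around Dppa2 and Dppa4 by Capture Hi-C, in which ligated DNA ends are enriched for 1 genomic region before sequencing. Its labels describe 14 samples in 10 groups, all of hybrid cas/129 origin: mouse embryonic stem cells (mESC), neural precursors (NPC), and mESC carrying 100k.del, 145k.del, 18k.del, 680kinv, ab.del, abc.del, bc.del or c.del. Of these groups 6 had 1 sample and 4 had 2, and none had a matrix of its own, so none was analysed here. The data used were 1 pooled matrix of untreated mESC and 1 of mESC that had spent 2 days in auxin. This plant hormone is used in engineered cells to trigger the breakdown of a tagged protein, but the labels name no such protein, no auxin-treated sample and no genotype for either matrix. Since each condition has 1 matrix, the conditions could not be tested against each other, and every difference below compares these 2 pooled libraries. Each is given with a 95% counting interval, which leaves out the spread between cultures.

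Mammalian chromosomes fold into domains whose loci touch each other more often than they touch loci next door. The borders, called boundaries, are often held by the protein CTCF and by cohesin, a ring complex that extrudes loops of DNA until CTCF stops it. In a contact map a boundary appears as a dip in contacts that pass over it. Gene-poor regions can hold such boundaries as well as gene-rich ones.

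The promoters of the 3 genes of the stretch other than pseudogenes, and that of Ift57 beside it, are shown because they are the only sequence used here for its genes. They come from RefSeq for build GRCm38.p6, each 5′ to 3′ on the gene's strand, with CG dinucleotides in capitals. The promoter of 1700026J12Rik lies on the minus strand at chr16:49255723-49256022, at the left end. The Gm4802 promoter lies on the minus strand at chr16:49412638-49412937 on the left side, and that of Gm31494 on the minus strand at chr16:49644603-49644902 on the right side. The Ift57 promoter lies on the plus strand at chr16:49699044-49699343, just past the right end.
1700026J12Rik: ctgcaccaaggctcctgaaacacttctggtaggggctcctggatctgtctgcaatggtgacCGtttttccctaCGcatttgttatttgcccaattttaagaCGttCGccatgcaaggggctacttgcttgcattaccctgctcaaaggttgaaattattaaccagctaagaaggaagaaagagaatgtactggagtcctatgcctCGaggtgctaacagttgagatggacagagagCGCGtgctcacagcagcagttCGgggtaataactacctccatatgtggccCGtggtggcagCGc
Gm4802: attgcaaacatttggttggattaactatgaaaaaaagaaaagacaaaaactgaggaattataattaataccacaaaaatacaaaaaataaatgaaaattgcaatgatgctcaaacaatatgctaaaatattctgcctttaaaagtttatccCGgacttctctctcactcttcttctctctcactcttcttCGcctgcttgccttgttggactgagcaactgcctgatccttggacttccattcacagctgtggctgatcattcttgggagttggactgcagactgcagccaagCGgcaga
Gm31494: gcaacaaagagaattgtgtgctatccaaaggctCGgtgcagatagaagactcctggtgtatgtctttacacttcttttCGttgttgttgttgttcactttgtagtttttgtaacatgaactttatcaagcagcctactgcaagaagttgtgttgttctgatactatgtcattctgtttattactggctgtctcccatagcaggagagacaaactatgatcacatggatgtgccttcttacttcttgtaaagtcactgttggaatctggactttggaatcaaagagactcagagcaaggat
Ift57: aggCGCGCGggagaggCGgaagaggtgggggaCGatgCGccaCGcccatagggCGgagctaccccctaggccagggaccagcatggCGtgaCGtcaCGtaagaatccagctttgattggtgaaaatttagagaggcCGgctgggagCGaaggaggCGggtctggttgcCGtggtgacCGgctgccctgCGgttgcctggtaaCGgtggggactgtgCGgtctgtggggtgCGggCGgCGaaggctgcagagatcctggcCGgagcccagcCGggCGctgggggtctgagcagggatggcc
The promoter of 1700026J12Rik had 50% G or C and 10 CG dinucleotides, that of Gm4802 had 38.7% and 3, and that of Gm31494 had 40% and 2. Of the neighbours, Ift57 had 67.7% and 25 CG dinucleotides and Myh15 had 33.7% and 0, against a median of 52.7% G or C over 32851 mouse promoters. The CTCF core motif, searched on both strands without a mismatch, was in 0 of the 3 promoters in the stretch and in 183 of the 32851, or 0.557%. The dividing bin's own sequence was not analysed here.

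The untreated matrix held 439849 recovered read pairs and the auxin matrix 433895 over 535 bins. The bins of the stretch held 195 to 2911 pairs each untreated, with a median of 1673, and 216 to 2823 after auxin, with a median of 1748.5. A single bin pair at least 60 kb apart had a median of 8 read pairs in each matrix, and 5.20% of the 903 were empty untreated and 3.99% after auxin. Means over groups of bin pairs were therefore compared.

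Taken whole, the stretch was about as dense in contacts in both matrices. Its 903 bin pairs held 9412 read pairs untreated and 9040 after auxin. Distance-corrected contact, which is the observed value over the mean of all pairs at the same distance in the same matrix, was 1.00 untreated and 1.03 after auxin. The log2 ratio of auxin over untreated was 0.04 (−0.02 to 0.10), so no change was resolved. By distance the log2 ratio was −0.03 (−0.13 to 0.07) at 60 to under 100 kb and 0.07 (−0.02 to 0.15) at 100 to under 200 kb. It was 0.09 (−0.03 to 0.21) at 200 to under 300 kb and −0.02 (−0.19 to 0.15) from 300 to 470 kb. No band was resolved with these settings, but some were under others. At 60 to under 100 kb the log2 ratio was −0.14 (−0.24 to −0.04) without an expected value and −0.12 (−0.22 to −0.01) after balancing again. At 100 to under 200 kb it was 0.12 (0.03 to 0.21) with the stretch 30 kb shorter at each end and 0.08 (0.002 to 0.16) with it 30 kb longer. From 300 kb it was 0.14 (0.01 to 0.27) in unbalanced read pairs. All pairs of the stretch from 300 kb cross the dividing bin, so this band is the same as that of the crossing pairs below.

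The contacts moved within the stretch. In the untreated matrix its right side was dense and contacts over the dividing bin were sparse, and after auxin both were near the mean of the interval. Contacts across the dividing bin rose and contacts within the right side, which holds Gm31494, fell, whereas those within the left side, which holds Gm4802, showed no resolved change.

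**Figure D1:**
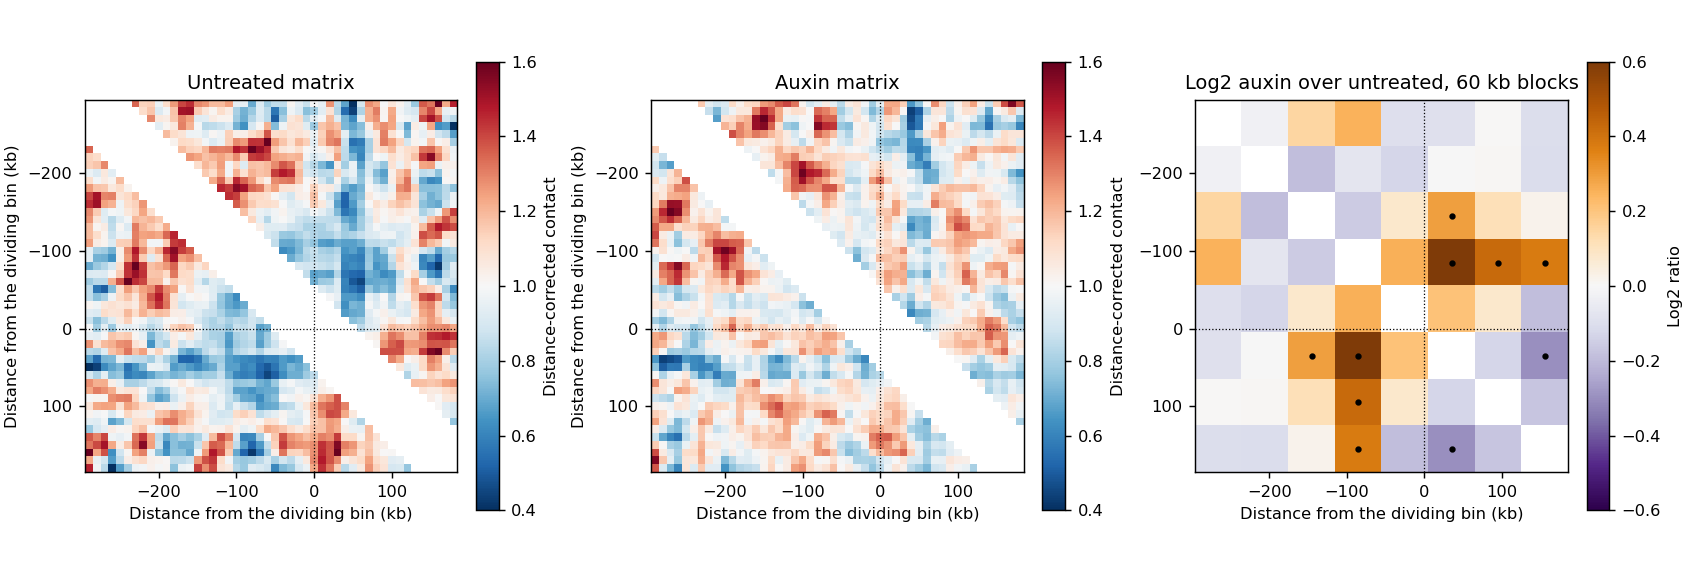
Contact within the stretch in each matrix, and the log2 ratio of auxin over untreated in blocks of 60 kb. Both axes give the distance from the dividing bin in kb. Contact is drawn smoothed, as the mean of each bin pair and its neighbours. Dots mark block pairs resolved as changed. The 4 block pairs resolved as higher after auxin each link a left to a right block. None of the 7 block pairs with the block holding the dividing bin was resolved as changed. Crossing pairs 100 to under 200 kb apart went from 0.854 to 1.02.

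Across the dividing bin, 512 bin pairs held 4149 read pairs untreated and 4413 after auxin. Their distance-corrected contact was 0.931 and 1.00, a log2 ratio of 0.11 (0.02 to 0.19). A rise was resolved in the bands under 200 kb. At 60 to under 100 kb, 26 bin pairs with 397 and 406 read pairs went from 0.747 to 0.929, a log2 ratio of 0.32 (0.09 to 0.54). At 100 to under 200 kb, 135 bin pairs with 1445 and 1562 read pairs went from 0.854 to 1.02, a log2 ratio of 0.26 (0.14 to 0.38). Farther out no change was resolved, and the difference between bands was not tested. The log2 ratio was 0.09 (−0.03 to 0.22) for 180 bin pairs at 200 to under 300 kb and −0.02 (−0.19 to 0.15) for 171 from 300 kb. In unbalanced read pairs these far bands were resolved as higher, at 0.12 (0.01 to 0.23) and 0.14 (0.01 to 0.27), and the shortest band was not, at 0.17 (−0.03 to 0.37). Contact across the bin was higher after auxin at 11 of 14 single distances under 200 kb and at 16 of 28 from 200 kb.

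The 276 pairs within the left side held 2895 read pairs untreated and 2674 after auxin. Their contact was 1.08 in both matrices, with a log2 ratio of −0.01 (−0.11 to 0.10). The 78 pairs within the right side held 1697 and 1374 read pairs. Their contact fell from 1.16 to 1.00, a log2 ratio of −0.22 (−0.34 to −0.09). The fall was seen at 60 to under 100 kb, with 1061 and 871 read pairs and a log2 ratio of −0.19 (−0.33 to −0.04), and at 100 to under 200 kb, with 636 and 503 read pairs and a log2 ratio of −0.25 (−0.45 to −0.05). The right side changed differently from the left, by −0.21 (−0.38 to −0.05) on the log2 scale. The crossing pairs exceeded the right side in log2 ratio by 0.32 (0.17 to 0.47), and the left side by 0.11 (−0.02 to 0.25), which was not resolved. Since the expected value is a mean within each matrix, these are changes relative to the interval.

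**Figure D2:**
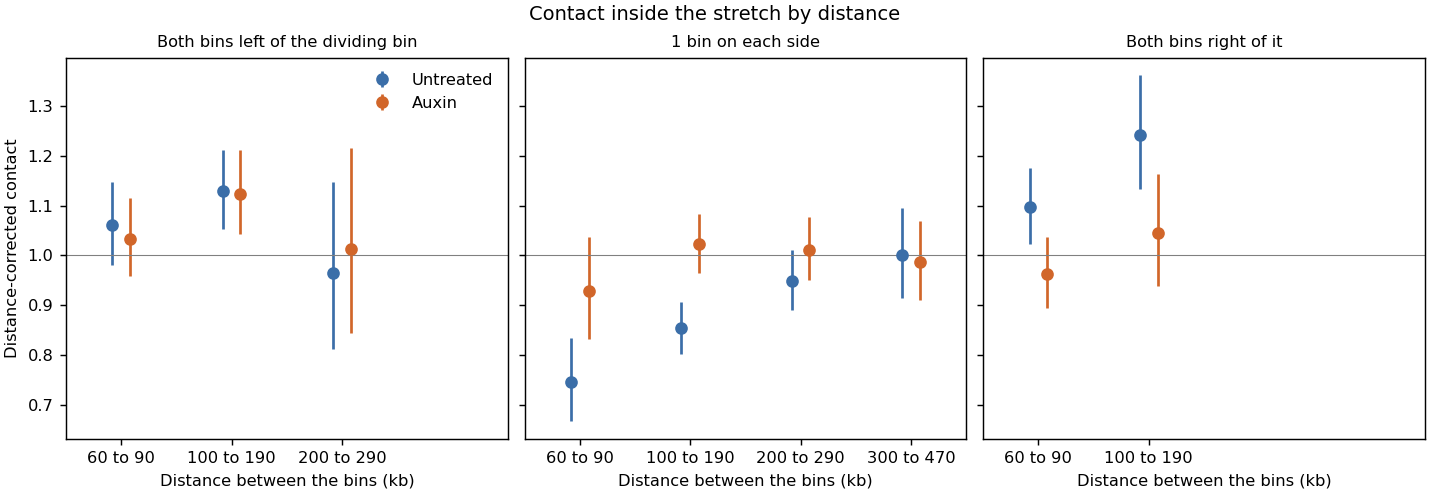
Distance-corrected contact of the pairs within the left side, within the right side and across the dividing bin, by distance in kb, in the untreated and the auxin matrix; vertical bars are 95% counting intervals. At 100 to under 200 kb the right side went from 1.24 to 1.05 and the crossing pairs from 0.854 to 1.02.

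A comparison that needs no expected value set crossing pairs against pairs of the same distance within the sides. From 60 to 280 kb, 323 crossing bin pairs with 3116 read pairs untreated and 3334 after auxin were compared with 4592 and 4048 read pairs within the sides. Beyond 170 kb the pairs within came from the left side only, and they thinned with distance. At 280 kb 18 crossing bin pairs were set against 1 bin pair within, with 1 read pair untreated and 6 after auxin. Contact across was 0.845 times that within (0.779 to 0.916) untreated and 0.987 times (0.903 to 1.08) after auxin. The log2 ratio of the 2 values was 0.22 (0.05 to 0.40). Against the left side alone, crossing contact went from 0.853 to 0.978 times that within, a log2 ratio of 0.20 (0.02 to 0.37). Against the right side alone, over 60 to 170 kb, it went from 0.644 to 0.999 times, a log2 ratio of 0.63 (0.41 to 0.85). Crossing contact was below that within the sides at 18 of 23 single distances untreated and at 13 of 23 after auxin. The thin reference at the longest distances enters these counts too.

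The dividing bin was named with these matrices already examined, as a boundary of the untreated one, so its low untreated values are a description and the rise was measured at a place chosen for them. Dividing the same stretch at each of 32 positions placed the lowest untreated value 1 bin to the left, at 49490001. There contact across was 0.795 times that within (0.727 to 0.871) untreated and 0.976 times after auxin, a log2 ratio of 0.30 (0.10 to 0.49). The interval lay wholly below 1 at 11 of 32 positions untreated and at 0 of 32 after auxin. The log2 ratio was resolved as a rise at 5 of the 32 positions and as a fall at 2. The falls were −0.19 (−0.36 to −0.01) at 49380001 and −0.14 (−0.28 to −0.01) at 49600001. The lowest auxin value, 0.897 (0.801 to 1.01), was at 49440001, where the untreated value was 0.849. The largest log2 ratio was 0.34 (0.11 to 0.57) at 49460001, where the value went from 0.819 to 1.04. Neighbouring positions share most of their pairs.

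**Figure D3:**
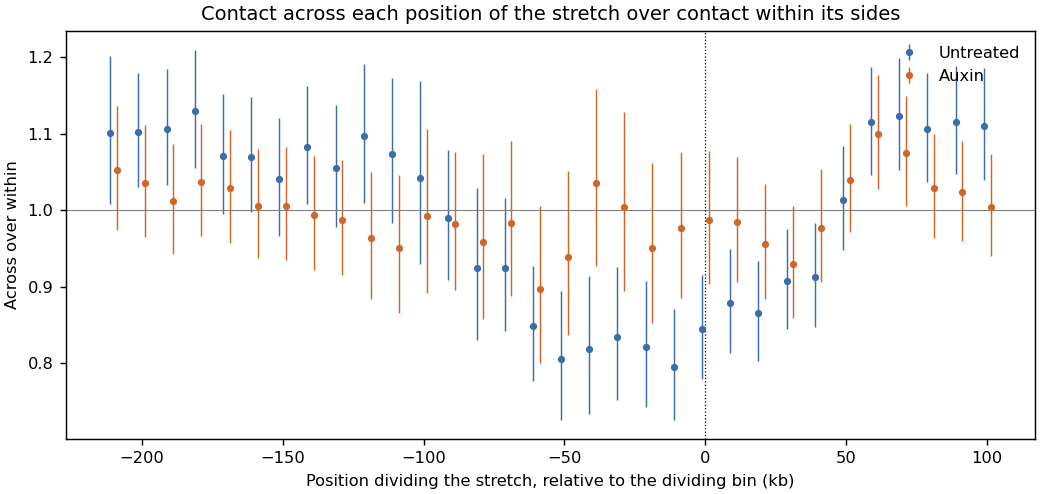
Contact across each of 32 positions of the stretch over contact within its sides at the same distances, with 95% counting intervals; the horizontal axis is the distance of the position from the dividing bin in kb. Untreated values dip to 0.795 just left of the dividing bin, where the auxin value is 0.976.

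The insulation score gave the same stretch bin by bin. It is the log2 of the mean contact in the square joining the 100 kb before a bin to the 100 kb after it, relative to all such squares, and it is low at a boundary. The dividing bin's square held 1364 read pairs untreated and 1467 after auxin. Its score rose from −0.41 to −0.04, by 0.37 (0.25 to 0.50). It was the 26th lowest of 515 bins untreated and the 220th after auxin. The lowest untreated scores of the stretch were those of the dividing bin, of the bin at 49490001 with −0.40 and of the bin at 49460001 with −0.37. These bins also had the largest rises, of 0.39 (0.27 to 0.52) at 49490001 and 0.35 (0.22 to 0.48) at 49460001 beside that of the dividing bin. Each rise is measured from the same low untreated score, and the squares of these bins overlap. The low scores and the rises are thus not separate observations.

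Scores were resolved as higher after auxin in 17 of the 48 bins, against 11.5% of all 515 bins, and as lower in 7, against 13.4%. After balancing again the counts were 10 higher and 11 lower, and with a window of 50 kb they were 4 and 4, so the larger number of higher bins depends on these settings. The higher bins included a run of 13 neighbouring bins from 49410001 to 49530001 that spans the dividing bin, with rises of 0.15 to 0.39. In that run untreated scores lay between −0.41 and −0.07 and auxin scores between −0.05 and 0.08. The left side had 13 of 29 bins higher and 0 lower, and the right side had 3 of 18 higher and 7 lower. These are not changes within each side alone. Squares of bins under 100 kb from the dividing bin take in contacts over it, and those near the ends take in contacts outside the stretch. A run of 6 bins from 49570001 to 49620001 fell, by log2 changes of −0.20 to −0.14. Squares of neighbouring bins overlap, so a run is not a set of separate observations.

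The largest falls were all on the right side. The score at 49590001 went from 0.20 to −0.001, a change of −0.20 (−0.30 to −0.10). The score at 49610001 went from 0.12 to −0.07, a change of −0.19 (−0.30 to −0.08), and that at 49620001 from 0.08 to −0.11, a change of −0.18 (−0.29 to −0.07). After auxin the lowest scores of the stretch had thus moved away from the dividing bin to its right end. They were −0.24 at 49650001, −0.18 at 49640001 and −0.13 at 49670001, and the squares of these bins reach past the right end of the stretch. Of these, the bin at 49640001 fell, by a log2 change of −0.14 (−0.27 to −0.003), while those at 49650001, with −0.06 (−0.19 to 0.06), and 49670001, with 0.02, were not resolved as changed.

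By gene, the bin of Gm4802 went from a score of −0.07 to 0.08, a resolved rise of 0.15. This gene spans 49412250 to 49412687 and ends 87.3 kb to the left of the dividing bin. Gm31494, which spans 49572319 to 49644652 and starts 62.3 kb to its right, had 7 of its 8 bins lower, against 13.4% of all bins. The mean change was −0.15 over the 8. These 7 are the lower bins of the right side given above, and their squares overlap. A bin's score is built from contacts between its flanks and leaves out the bin's own contacts. 1700026J12Rik, at the left end from 49210640 to 49255772, had 1 of 5 bins higher, against 11.5% of all bins. The bin of the pseudogene Gm6931 rose by 0.16. The bins of the pseudogenes Gm18694, with a mean change of −0.13, and Gm35938, with −0.10, were not resolved as changed.

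**Figure D4:**
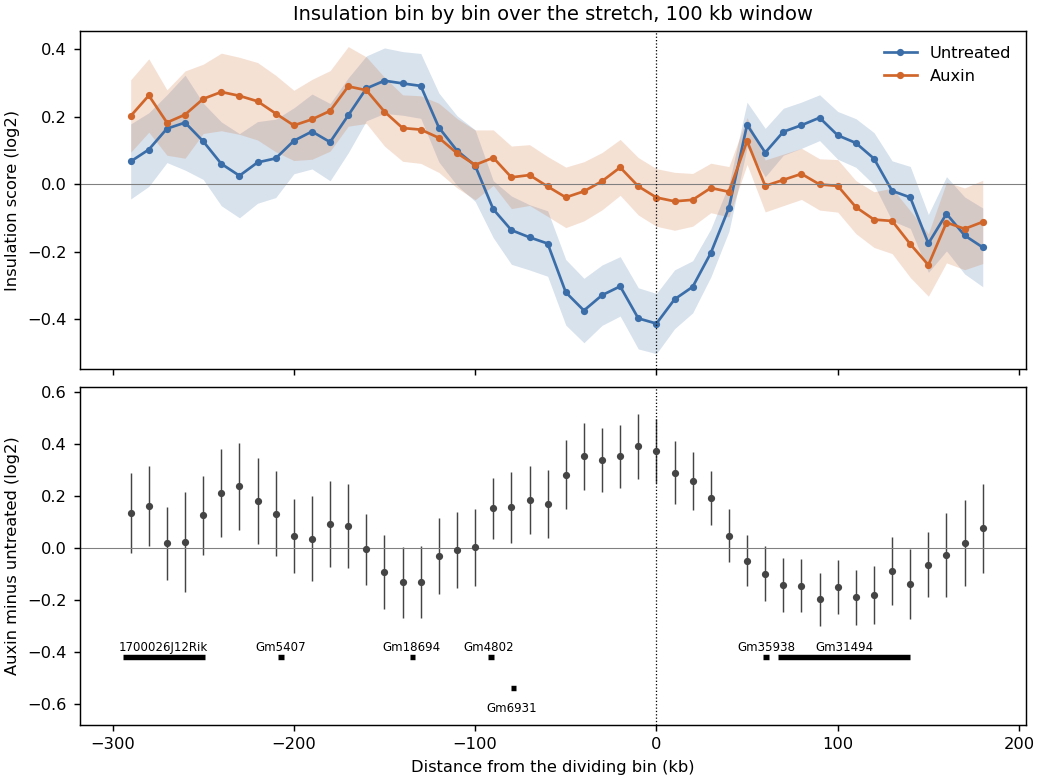
Insulation score of each bin of the stretch in the untreated and the auxin matrix, and the change between them with 95% counting intervals, against the distance from the dividing bin in kb. The untreated dip of −0.41 at the dividing bin is at −0.04 after auxin.

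Within the stretch, scores spanned 0.72 untreated and 0.53 after auxin, with an SD over bins of 0.205 and 0.138. Over all bins of the interval the SD was 0.219 and 0.190. The median change was 0.05 in the stretch and 0.0002 over all bins.

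The stretch was also divided into 8 blocks of 60 kb. Of 28 block pairs 4 were resolved as higher after auxin, against 10.2% over the interval, and 1 as lower, against 9.69%. The share of higher block pairs was thus near that of the interval, and the pairs are given as a description. The number of lower pairs was 6 without an expected value, 4 after balancing again and 2 in unbalanced read pairs. Each of the 4 linked a left block to a right block. The block starting at 49390001, which holds Gm4802 and Gm6931, took part in 3 of them. With the block at 49510001 it had 228 read pairs untreated and 360 after auxin, and contact rose from 0.667 to 1.03, a log2 ratio of 0.62 (0.34 to 0.90). With the block at 49570001 it had 255 and 334 pairs and a log2 ratio of 0.42 (0.16 to 0.69). With the block at 49630001 it had 184 and 213 pairs and a log2 ratio of 0.38 (0.04 to 0.71).

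The remaining rise linked the blocks at 49330001 and 49510001, with 347 and 410 read pairs and a log2 ratio of 0.29 (0.07 to 0.52). The fall lay within the right side. It linked the blocks at 49510001 and 49630001, whose read pairs went from 600 to 469 and whose contact fell from 1.21 to 0.987, a log2 ratio of −0.30 (−0.51 to −0.08). The next largest negative ratios were not resolved: −0.19 (−0.42 to 0.04) between the blocks at 49450001 and 49630001, and the same between those at 49270001 and 49330001. None of the 6 block pairs within the left side was resolved as changed. Nor was any of the 7 with the block that holds the dividing bin.

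The rise of the strongest block pair was spread over several bins of its first block. Contacts of the bin at 49400001 with the block at 49510001 went from 36 to 65 read pairs, a log2 ratio of 1.10 (0.47 to 1.72). The bins at 49420001, 49430001 and 49440001 went from 59 to 95, from 29 to 50 and from 36 to 63 read pairs, with log2 ratios of 0.61 (0.11 to 1.11), 0.87 (0.19 to 1.54) and 0.79 (0.18 to 1.40). The bin of Gm4802 had 26 and 27 read pairs there, and its log2 ratio of 0.18 (−0.64 to 1.00) was too uncertain to place. By bin of the second block, contacts with the first went from 47 to 94 read pairs at 49510001, a log2 ratio of 0.85 (0.29 to 1.42). At 49520001 they went from 52 to 91, a log2 ratio of 0.77 (0.22 to 1.31). The other bins of the second block were not resolved as changed. These bins were named after their values were seen.

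Gm4802's bin was thinly covered on its own. It had 79 read pairs with the left side untreated and 64 after auxin, and 53 and 64 with the right side. The log2 ratios were −0.02 (−0.64 to 0.59) and 0.32 (−0.24 to 0.89), so no change in its own contacts was detectable at this depth. The dividing bin's contact was 0.886 with the left side and 1.26 with the right side untreated, and 1.02 and 1.14 after auxin. Neither log2 ratio was resolved, at 0.20 (−0.09 to 0.49) with 291 and 300 read pairs to the left and −0.15 (−0.41 to 0.11) with 380 and 279 to the right.

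Bin by bin, contact over the dividing bin was higher after auxin in 20 of 29 left bins, with a median of 0.937 untreated and 1.02 after auxin. It was higher in 14 of 18 right bins, with medians of 0.958 and 1.04. These counts give direction only, and each crossing pair enters both sides. Most single bins were not resolved as changed. Several rose, and the left bin at 49470001 fell from 1.11 to 0.832, a log2 ratio of −0.41 (−0.74 to −0.09). The bin at 49550001 stood apart in both matrices. It had 310 read pairs untreated and 343 after auxin, with 34 and 46 of them over the dividing bin, and its crossing contact was 0.238 (0.163 to 0.348) and 0.406 (0.294 to 0.559). Without it the log2 ratio was 0.09 for all crossing pairs and 0.20 for across over within, and the dividing bin's score change was 0.33.

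Stretches of the same size at 488 overlapping positions of the interval gave the scale of these values. The contact of the stretch, 1.00 untreated, lay within a range of 0.705 to 1.26 with a median of 1.02. Its across over within value of 0.845 untreated was undercut at 70 positions and its 0.987 after auxin at 207. Its log2 ratio of 0.22 was exceeded at 66 positions. The interval of this ratio lay above 0 at 15.0% of positions, so such a rise was not particular to the stretch.

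**Figure D5:**
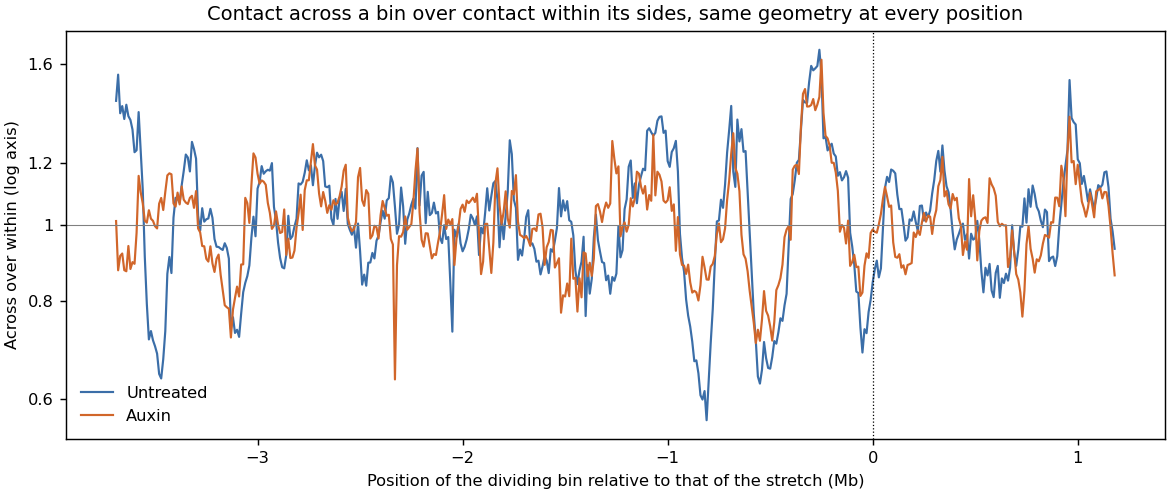
Across over within in each matrix for a stretch of the same size and dividing point at 488 overlapping positions along the interval. The horizontal axis is the distance from the stretch in Mb, and the vertical axis is logarithmic. The stretch, at 0, has 0.845 untreated and 0.987 after auxin. Its log2 ratio of 0.22, which is not drawn, is inside a range of −0.83 to 0.76.

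The other gene-poor region of the interval is the desert between Nectin3 and Gm52257. Its 5397 pairs from 60 to 470 kb apart had a contact of 1.08 untreated and 1.09 after auxin, a log2 ratio of 0.01 (−0.03 to 0.05). The log2 ratio of the stretch exceeded that of the desert by 0.03 (−0.04 to 0.10), which was not resolved. In the desert 11 of 155 bins had a higher insulation score after auxin, against 11.5% of all bins, and 2 a lower one, against 13.4%. The SD of the desert's scores was 0.144 untreated and 0.149 after auxin.

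The counting intervals hold the bin factors and the expected values fixed. The rise over all crossing pairs was not resolved after the matrices were balanced again, with a log2 ratio of 0.04 (−0.04 to 0.13). At 60 to under 100 kb it was not resolved without an expected value, at 0.19 (−0.03 to 0.41), or when the stretch was divided 1 bin to the right, at 0.11 (−0.10 to 0.32). With a window of 50 kb the score change at the dividing bin was 0.19 (−0.01 to 0.39), with one of 200 kb 0.23 and in unbalanced read pairs 0.21.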

How the data were processed

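The data were 2 contact matrices of mESC, untreated and after 2 days of auxin. Per the deposited names, the authors made this contact signal, which has no unit, by combining replicates, counting read pairs in bins of 10 kb and balancing the matrices by iterative correction. The submitters' processing notes name mm10 as the build and Trim Galore as a tool. How reads were aligned, filtered and balanced was not given in the sources used here.

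A balanced value equals its read pair count multiplied by a factor of either bin. With the factors estimated from each matrix, 100% of nonzero values came within 0.02 of whole read pairs. These pairs gave the counting intervals, computed analytically at 95%. They cover counting error only, and read pairs amplified from 1 molecule are not independent. Of the 535 bins, 18 in each matrix held under 100 read pairs, none of them in the stretch. Depth was alike, at 376400 and 372484 read pairs at least 20 kb apart.

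Expected contact was the mean at each distance in the same matrix. Insulation squares held pairs 20 to 200 kb apart, so pairs beyond 200 kb do not enter them. "Rose" and "fell" were used where the interval excludes 0. The mean contacts of left, right and crossing pairs and the recovery of read pairs were tested on simulated data, and the other measures were not. The computation used Python 3.11.15, numpy 2.4.6, scipy 1.17.1 and matplotlib 3.10.9.

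The members, the lists and the dividing bin were chosen with earlier results of these data known. The items named by rule were Gm4802, Myh15, Ift57, the dividing bin, the 3 bins with the lowest score in each matrix, and the 3 bins and 3 block pairs that rose most and fell most, block pairs having at least 30 read pairs in each matrix. Leaving out the sparse bin at 49550001 was an alternative added after seeing the data.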

Additional observations from a re-analysis of the deposited data

How the results depend on the processing

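Of 176 values recomputed under the alternatives, 161 lay within the counting error of the value reported (for counts, within 1.5 times), 15 moved by more and 0 changed the direction of a resolved difference. Of 149 with an interval, 5 no longer excluded 0 and 7 newly did. Their values are given beside the results. The value from 300 kb in unbalanced read pairs enters the 7 both for the whole stretch and for the crossing pairs, though it is the same observation. The crossing contact at 100 to under 200 kb, the fall within the right side and the rise of across over within were resolved under every alternative run on them. Some alternatives could not change a value. That crossing contact keeps the same pairs with a distance minimum of 20 or 100 kb or a longer stretch, and stayed at 0.26. Across over within stayed at 0.22 without bins under 100 read pairs, since none lie in the stretch. Such repeats are counted among the 176.

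Without an expected value and with the matrices scaled to the same sum, the log2 ratio of the whole stretch was −0.0283 and that of its pairs 60 to under 100 kb apart −0.14, and 6 block pairs were lower. After balancing again, the whole stretch was at −0.0368 and its difference from the rest of the interval at −0.0346, with 10 bins higher, 11 bins lower and 4 block pairs lower. With an insulation window of 50 kb the dividing bin's score change was 0.19, with 4 bins higher and 4 lower. With one of 200 kb it was 0.23, with 4 bins lower. From read pairs without balancing it was 0.21, with 2 block pairs lower. The cause of these moves was not tested.

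No paired analysis was possible because each condition has 1 pooled matrix and no matrix carries a replicate number. For the same reason leaving out a replicate was not run. Single bin pairs, with a median of 8 read pairs, were too sparse to compare.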
